A study of Mus musculus with 24 samples.

Results

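Neurotensin, the tachykinins, CART and prokineticin 2 are neuropeptides that neurons of the nucleus accumbens (NAc) make or receive, and the mRNAs of 9 genes of these systems were followed in the NAc of male and female mice after Subchronic Variable Stress (SCVS). The genes are the ligand precursors *Nts*, *Tac1*, *Cartpt* and *Prok2* and the receptors *Ntsr1*, *Ntsr2*, *Tacr1*, *Tacr3* and *Prokr2*. They were chosen by name from the 38293 genes of the mRNA count table, with earlier results of the same counts in view, so their values describe these libraries and the fact that some of them differ between groups is no independent support for anything. All 9 were found and all 9 were among the 18593 genes with enough reads to be tested. The mice were C57BL/6J, 9 weeks old by the labels. Stressed males (SM) and stressed females (SF) received foot shock, tail suspension and restraint on consecutive days, and unstressed males (NSM) and unstressed females (NSF) served as controls. Each of the 4 groups had 3 libraries, and each library was made from 10 punches of ventral striatum pooled from 5 mice, so that the spread between libraries is a spread between pools and not between animals. The females were in estrus or proestrus and tissue was taken the day after the last stressor.

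The NAc is the ventral part of the striatum, and nearly all of its neurons are GABAergic medium spiny neurons. Those that carry the dopamine D1 receptor make substance P from *Tac1* and dynorphin, and those that carry the D2 receptor make enkephalin. Neurotensin modulates dopamine signaling and is made by a subset of striatal neurons. CART, the peptide encoded by *Cartpt*, is abundant in the NAc, responds to psychostimulants and acts on feeding and reward. Prokineticin 2 is an output signal of the circadian clock in the suprachiasmatic nucleus and a guidance cue for neurons born in the subventricular zone. Each of the 5 receptors is coupled to G proteins: NTSR1 and NTSR2 bind neurotensin, TACR1 prefers substance P, TACR3 prefers neurokinin B, and PROKR2 binds prokineticins. *Ntsr2* is also expressed by astrocytes.

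The 4 ligand genes lie on 3 chromosomes. In the NCBIM37 annotation that the counts use, *Nts* spans chromosome 10 from 101944394 to 101953052 on the minus strand, *Tac1* spans chromosome 6 from 7505071 to 7512973 on the plus strand, *Cartpt* spans chromosome 13 from 100668439 to 100670638 on the minus strand and *Prok2* spans chromosome 6 from 99661293 to 99676386 on the minus strand. Their upstream sequences are shown because 3 of the 4 differed between stressed and unstressed males and the fourth, *Tac1*, gave values that did not. Each line gives the 250 bases before the transcription start as RefSeq places it in build GRCm38.p6, read 5′ to 3′ on the strand of the gene. These windows are chr10:102490419-102490668 for *Nts*, chr6:7554811-7555060 for *Tac1*, chr13:99900684-99900933 for *Cartpt* and chr6:99726393-99726642 for *Prok2*. Capitals mark matches, on either strand, to the E-box CACGTG, the cAMP response element TGACGTCA, its part TGACG and the AP-1 motif TGANTCA.
Nts: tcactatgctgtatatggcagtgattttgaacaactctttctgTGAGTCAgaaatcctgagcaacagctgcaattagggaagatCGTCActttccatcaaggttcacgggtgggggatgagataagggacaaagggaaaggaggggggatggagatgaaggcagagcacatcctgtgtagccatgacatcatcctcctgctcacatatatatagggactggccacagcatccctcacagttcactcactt
Tac1: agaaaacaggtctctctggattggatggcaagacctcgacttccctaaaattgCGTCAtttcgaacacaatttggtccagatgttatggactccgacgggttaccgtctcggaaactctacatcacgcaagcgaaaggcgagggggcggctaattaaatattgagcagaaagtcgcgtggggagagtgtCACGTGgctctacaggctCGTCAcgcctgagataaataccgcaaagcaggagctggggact
Cartpt: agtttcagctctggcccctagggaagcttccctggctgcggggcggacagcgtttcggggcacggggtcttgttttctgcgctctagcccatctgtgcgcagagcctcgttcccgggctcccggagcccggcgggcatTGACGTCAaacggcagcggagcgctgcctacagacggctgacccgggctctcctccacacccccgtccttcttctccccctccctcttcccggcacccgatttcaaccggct
Prok2: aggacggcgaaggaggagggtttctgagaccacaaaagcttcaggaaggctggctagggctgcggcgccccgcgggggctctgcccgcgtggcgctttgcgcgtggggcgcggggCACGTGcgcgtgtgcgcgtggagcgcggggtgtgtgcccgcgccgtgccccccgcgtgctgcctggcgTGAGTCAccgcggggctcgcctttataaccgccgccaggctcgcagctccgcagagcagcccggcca
The 3 windows whose genes were lower in stressed males had no motif in common, although *Nts* and *Prok2* both held AP-1. *Cartpt* held the full TGACGTCA, at bases -112 to -105 from the start, and its part TGACG lies inside that match on both strands. *Nts* held an AP-1 match at -207 to -201 and the part TGACG, read on the opposite strand, at -166 to -162. *Prok2* held an E-box at -135 to -130 and an AP-1 match at -67 to -61. *Tac1* held an E-box at -61 to -56 and the part TGACG on the opposite strand at -197 to -193 and at -43 to -39. Among 32851 RefSeq promoter windows of the same length, 6.02% held the E-box, 1.55% the full cAMP response element, 17.8% its part and 6.75% the AP-1 motif. A match describes letters in the window and is not evidence that a factor bound there.

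The genes were expressed over a wide range. Scaled to kilobases of exon and to 1000000 reads (RPKM), *Tac1* had the highest mean level over the 12 libraries, at 280 RPKM, above 99.6% of the 17795 tested genes that have a symbol. *Cartpt* followed at 55.2, *Ntsr2* at 41.8 and *Nts* at 28.2 RPKM. *Tacr1* at 5.43 and *Tacr3* at 3.20 RPKM were at middle levels, and *Prok2* at 0.918, *Ntsr1* at 0.653 and *Prokr2* at 0.646 RPKM were above 27.2%, 23.2% and 23.0% of those genes. Libraries held 41076780 to 60867747 reads assigned to genes, which gave *Tac1* at least 12130 reads in every library but *Prok2* 33 to 135 and *Ntsr1* 68 to 228. No member passed the read filter through 1 group alone, since the lowest count of any member in any library was 33. The start of *Prok2* overlaps a noncoding RNA on the other strand, *Gm16748* (chromosome 6 from 99675765 to 99682547), which is not among the counted genes. The library kit does not keep strand and the strand setting of the counting is not given in the sources used here, so reads of the 2 genes cannot be told apart where they overlap.

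**Figure D1:**
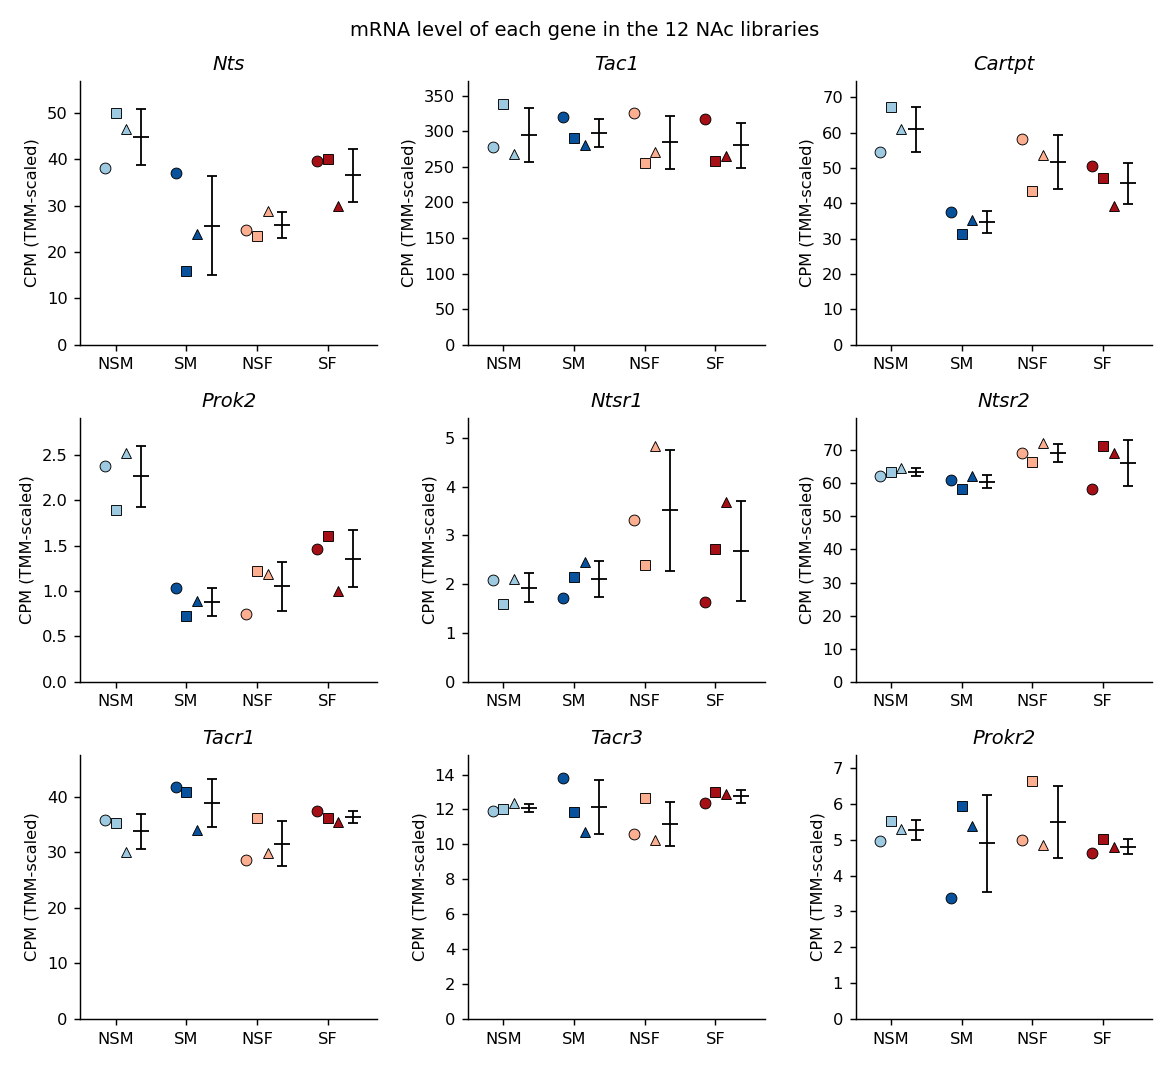
mRNA level of each gene, in reads per 1000000 scaled by TMM (CPM), in the 12 NAc libraries. Circles, squares and triangles are replicates 1, 2 and 3 of a group, and the bar beside them is the mean with 1 SD. *Nts*, *Cartpt* and *Prok2* were lower in all 3 SM libraries than in all 3 NSM libraries, whereas *Tac1* overlapped between all groups.

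In males, 3 ligand mRNAs were lower after stress than in unstressed controls. Following the study's methods, a gene was called regulated when its fold change was 1.3 or more and its p before adjustment was under 0.05. The p-values adjusted over all 18593 genes (limma after voom) are given beside each change. Within this rule 3 of 9 members were downregulated and 0 upregulated in males, against 4.08% of all genes downregulated and 2.36% upregulated. At an adjusted p under 0.05 the count was again 3 of 9, against 3.32% of all genes in either direction. The median log2 fold change of the 9 members was -0.07 and that of all genes -0.01. The groups did not overlap for 4 members, *Nts*, *Ntsr2*, *Cartpt* and *Prok2*, against 23.0% of all genes.

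*Cartpt* had the smallest error of the 3. Scaled to 1000000 reads with TMM factors (CPM), the NSM libraries held 54.6, 67.2 and 61 CPM and the SM libraries 37.6, 31.3 and 35.2 CPM. Every stressed library was thus well below every unstressed one, and the means were 60.9 ± 6.31 and 34.7 ± 3.17 CPM (SD, n = 3 each). The log2 fold change was -0.81 (SE, the standard error of the fit, 0.12, adjusted p = 0.00531), a level 1.76-fold lower.

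*Prok2* changed most. Its level was 2.38, 1.89 and 2.52 CPM in the NSM libraries and 1.03, 0.723 and 0.886 CPM in the SM libraries. The highest stressed library lay far below the lowest unstressed one, with means of 2.27 ± 0.333 and 0.880 ± 0.155 CPM (SD, n = 3 each). The log2 fold change was -1.37 (SE 0.23, adjusted p = 0.00922), a level 2.59-fold lower. It was number 48 of all 18593 genes by how far the log2 level fell in males. Without SM replicate 2 the log2 fold change was -1.23 (adjusted p = 0.073).

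*Nts* was the most variable of the 3 after stress. The NSM libraries held 38.2, 49.9 and 46.5 CPM and the SM libraries 37.1, 16.0 and 23.9 CPM. SM replicate 1 reached nearly the lowest unstressed library while replicate 2 was far below it, so the SD after stress (10.7 CPM around a mean of 25.6, n = 3) exceeded that before (6.03 CPM around 44.9, n = 3). The log2 fold change was -0.90 (SE 0.21, adjusted p = 0.0397), a level 1.86-fold lower, and it was -0.58 (adjusted p = 0.171) without SM replicate 2. The adjusted p was 0.0564 with the quasi-likelihood test of edgeR and 0.0589 with DESeq2. In such bulk tissue, fewer cells that express a gene and less of its mRNA per cell cannot be told apart.

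The most abundant ligand mRNA, *Tac1*, was 278, 339 and 268 CPM in the NSM libraries and 320, 291 and 281 CPM in the SM libraries. These ranges overlapped almost completely, and the log2 fold change was 0.02 with a 95% interval of -0.21 to 0.25, which leaves out a 1.3-fold change in either direction.

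None of the 5 receptor mRNAs was called in males. *Tacr1*, the substance P receptor, was 35.9, 35.4 and 30.1 CPM in NSM and 41.8, 40.9 and 33.9 CPM in SM. The stressed mean was higher but the groups overlapped, at a log2 fold change of 0.20 (SE 0.10, adjusted p = 0.253). *Ntsr2* was 62.3 to 64.7 CPM in NSM and 58.3 to 62.3 CPM in SM, ranges that meet at 62.3 CPM, with a log2 fold change of -0.07 (SE 0.07). *Tacr3*, at -0.01, had a 95% interval of -0.21 to 0.19 and *Prokr2*, at -0.12, one of -0.49 to 0.25. The interval of the sparsely counted *Ntsr1* ran from -0.56 to 0.82 around a value of 0.13.

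In females, *Nts* was the 1 member called, and it was higher after stress. The NSF libraries held 24.8, 23.5 and 28.9 CPM and the SF libraries 39.6, 40.1 and 29.9 CPM. SF replicate 3 lay just above the highest unstressed library and the other two were clearly higher, with means of 25.8 ± 2.78 and 36.5 ± 5.77 CPM (SD, n = 3 each). The log2 fold change was 0.50 (SE 0.21, 95% interval 0.05 to 0.96), a level 1.42-fold higher, but the adjusted p was 0.948. No gene of the whole table had an adjusted p under 0.05 in females with limma, and DESeq2 gave 3 such genes. An unadjusted p under 0.05 (limma) was found for 786 of the 18593 genes, fewer than this threshold would give by chance alone. Upregulated genes made up 0.640% and downregulated genes 1.09% of all genes in females, and 1 of 9 members did not overlap between the groups against 11.3% of all genes. The call on *Nts* was lost without NSF replicate 1 (log2 fold change 0.49), without NSF replicate 2 (0.44), without SF replicate 1 (0.44) and without SF replicate 2 (0.43).

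None of the other ligands was called in females. *Cartpt* was 58.3, 43.4 and 53.7 CPM in NSF and 50.6, 47.0 and 39.2 CPM in SF, overlapping ranges with a log2 fold change of -0.18 and a 95% interval of -0.43 to 0.07. *Prok2* was 0.744, 1.22 and 1.19 CPM in NSF and 1.46, 1.60 and 1.00 CPM in SF, with a log2 fold change of 0.36 and an interval of -0.15 to 0.86. *Tac1* was 255 to 326 CPM in NSF and 259 to 317 CPM in SF (log2 fold change -0.02). Among the receptors *Tacr1* had a log2 fold change of 0.20, *Tacr3* one of 0.18 and *Ntsr1* one of -0.38, each with an adjusted p of 0.948 (limma). The value of *Ntsr1* ranged from -0.66 without NSF replicate 2, where it was called, as it was at -0.63 without SF replicate 3, to -0.12 without NSF replicate 3 and -0.067 without SF replicate 1.

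**Figure D2:**
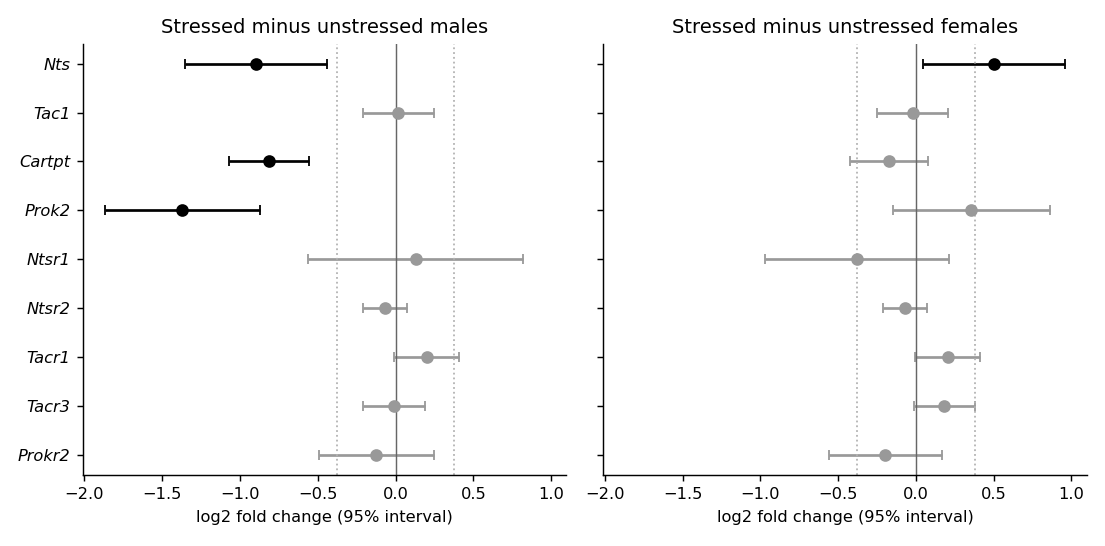
Log2 fold change of stressed against unstressed mice for each gene, in males on the left and in females on the right, with 95% intervals from the limma fit. Black marks genes called regulated and the dotted lines mark a 1.3-fold change. *Nts*, *Cartpt* and *Prok2* lie left of 0 in males, and *Nts* lies right of 0 in females.

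The difference between the sexes in the stress effect was tested by the sex-by-stress interaction. It was positive, that is more upward in females, for *Nts* (log2 difference 1.40, SE 0.30, adjusted p = 0.142), for *Prok2* (1.73, SE 0.33, adjusted p = 0.12) and for *Cartpt* (0.64, SE 0.17, adjusted p = 0.231). These 3 of 9 members passed the unadjusted rule in the upward direction, against 2.25% of all genes, and 0 passed an adjusted p of 0.05 with limma, where 5 of all genes did. With DESeq2 *Prok2* (adjusted p = 0.00164) and *Cartpt* (adjusted p = 0.0294) passed it and *Nts* (adjusted p = 0.0853) did not, and with edgeR none did (adjusted p = 0.115 for *Prok2*, the lowest of the 3). With the level of dorsolateral striatal markers in the model, which differed between the groups as described further on, the differences were 0.63 for *Nts* and 0.12 for *Cartpt*, neither of them called, and 1.43 for *Prok2*, which was. The effect on *Tac1* differed between the sexes by -0.04, with an interval of -0.36 to 0.28, and that on *Tacr1* by 0.00, with an interval of -0.29 to 0.30.

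Between unstressed mice of the 2 sexes, 3 members were called. The comparison of NSF with NSM shares its NSM libraries with the male stress comparison, so a high level in NSM enters both. *Prok2* was 2.15-fold lower in NSF than in NSM (-1.10 on the log2 scale, SE 0.21, adjusted p = 0.0511, against adjusted p = 0.0478 with edgeR and adjusted p = 0.00177 with DESeq2) and *Nts* was 1.74-fold lower (-0.80, SE 0.21, adjusted p = 0.115), with no overlap between the libraries of the 2 groups for either gene. *Ntsr1*, the high-affinity neurotensin receptor, went the other way: it was 2.08, 1.59 and 2.11 CPM in NSM and 3.31, 2.39 and 4.84 CPM in NSF. All 3 NSF libraries were above the NSM libraries, at a log2 fold change of 0.78 (SE 0.29, adjusted p = 0.223). Altogether 2 members were called lower against 1.15% of all genes, 1 was called higher against 4.17%, and 4 members did not overlap against 19.5%. *Cartpt* had a log2 fold change of -0.24, with an interval of -0.49 to 0.00, and *Tac1* one of -0.05. With the dorsolateral marker level in the model none of the 3 calls remained (*Nts* -0.14, *Prok2* -0.84, *Ntsr1* 0.73). The values of *Prok2* and *Ntsr1* moved less than that of *Nts*. The summed dorsolateral markers were 196 to 200 CPM in NSM and 229 to 258 CPM in NSF. These ranges do not overlap, so this marker level and sex cannot be told apart here. With the cortical marker level *Nts* (-0.62) was not called and *Prok2* (-0.87) was. The mean log2 level of the cortical markers did not overlap between NSM and NSF either.

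Between stressed mice, *Nts*, *Cartpt* and *Prok2* were higher in SF than in SM. The log2 fold change was 0.60 for *Nts* (SE 0.22, adjusted p = 0.188), 0.39 for *Cartpt* (SE 0.12, adjusted p = 0.129) and 0.62 for *Prok2* (SE 0.25, adjusted p = 0.237). With DESeq2 the adjusted p of *Cartpt* was 0.0447. These 3 members compare with 4.58% of all genes called higher, and 1 member, *Cartpt*, did not overlap, against 20.4% of all genes. Of the 3 calls, 0 remained without SM replicate 2, where *Nts* was 0.28, *Cartpt* 0.31 and *Prok2* 0.47, and 0 without SF replicate 2, where they were 0.52, 0.36 and 0.47, and only that of *Nts* remained without SF replicate 1.

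Set in order of mean level, *Nts* ran NSM, SF, NSF and SM, at 44.9, 36.5, 25.8 and 25.6 CPM. The libraries of NSM and SF overlapped, as did those of NSF and SM, while those of SF and NSF did not. *Prok2* ran in the same order of groups, at 2.27, 1.36, 1.05 and 0.880 CPM, with NSM apart from the other groups, which overlapped with their neighbors. *Cartpt* ran NSM, NSF, SF and SM, at 60.9, 51.8, 45.6 and 34.7 CPM, and SM was the group apart. Over all 12 libraries the coefficient of variation was 43.6% for *Prok2*, 37.8% for *Ntsr1*, 30.9% for *Nts* and 23.2% for *Cartpt*, and it was 7.31% to 15.4% for the 5 other members, including *Tac1* at 9.98%.

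Of the other genes of these families, 1 of 5 tested was called in males and 0 of 5 in females. For comparison with this list and those below, 4.08% of all genes were downregulated and 2.36% upregulated in males. In females the shares were 1.09% and 0.640%. *Tac2*, the precursor of neurokinin B, was 7.27, 6.40 and 8.09 CPM in NSM and 5.18, 4.10 and 5.27 CPM in SM. No stressed library reached an unstressed one, and the log2 fold change was -0.59 (SE 0.13, adjusted p = 0.0273). In females *Tac2* had a log2 fold change of -0.07. *Sort1*, which encodes sortilin, a sorting protein that also binds neurotensin, had a log2 fold change of 0.16 in males and 0.00 in females, and its relative *Sorl1* had -0.15 and 0.02. *Gpr160* had 0.35 and -0.12 at under 1 CPM, and *Prokr1* 0.17 and -0.02 at 3 to 15 reads a library. The other ligands and receptor, *Tac4*, *Prok1* and *Tacr2*, had 0 to 7 reads a library and were not tested. The median log2 fold change of the 5 tested genes was 0.16 in males and -0.02 in females.

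Peptide precursors are cut and stored in dense core vesicles by a shared set of enzymes and granins. Of 14 such genes, 2 were downregulated and 0 upregulated in males, against 4.08% and 2.36% of all genes. In females 0 of 14 were called. *Pcsk1*, the prohormone convertase PC1/3, went from 16.2 to 10.8 CPM in males, that is -0.58 on the log2 scale (SE 0.13, adjusted p = 0.0312). *Vgf*, which encodes a granin-like precursor, went from 154 to 102 CPM (-0.56, SE 0.19, adjusted p = 0.112). The other convertase, *Pcsk2*, named after its values were seen, was higher in stressed males, at 296 and 362 CPM without overlap (0.29, SE 0.07, adjusted p = 0.043), a change under the fold of 1.3 and so not called. The median log2 fold change of the 14 was 0.08 in males and -0.01 in females, and 9 of the 14 were positive in males. The most abundant, *Cpe* (carboxypeptidase E), was 1841 CPM in NSF and 1865 CPM in SF, and *Scg2* was 597 and 617 CPM. Of 10 peptidases, *Ace* was upregulated in males, from 5.67 to 7.41 CPM, that is 0.39 on the log2 scale (SE 0.15, adjusted p = 0.149). In females 0 of 10 were called, and *Ece1* had a log2 fold change of 0.01 and *Mme*, neprilysin, 0.03. The median of the 10 was 0.10 in males and -0.01 in females.

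Markers of the medium spiny neurons were present throughout, as the tissue label says, and 0 of 20 tested were called in either sex. In males *Drd1a*, the D1 receptor, had a log2 fold change of 0.21 and *Pdyn*, the dynorphin precursor, -0.15. *Penk*, the enkephalin precursor, had 0.14 and the adenosine receptor *Adora2a* 0.06. All 8 markers shared by both kinds of medium spiny neuron had positive values in males (median 0.16), *Gng7* at 0.15 and *Pde10a* at 0.24 among them, and 6 of 8 in females (median 0.04), where *Drd1a* had 0.11, *Pdyn* 0.15, *Penk* 0.15, *Adora2a* -0.01, *Gng7* 0.07 and *Pde10a* 0.00. The medians of 6 D1 markers were 0.06 in males and 0.05 in females, and those of 6 D2 markers 0.04 and -0.02.

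Markers of cortex and dorsolateral striatum, tissue next to the NAc, differed between the groups. The 12 markers of cortical glutamatergic neurons summed to 51.3 to 70.7 CPM in NSM, 95 to 263 in SM, 68.2 to 448 in NSF and 91 to 172 in SF, and none of the 12 was at 0 in any library. Most of the NSM sum came from *Cux2* and *Rorb*, which differed little between the groups. Their means were 25.4 and 16.3 CPM in NSM and 22.2 and 18.8 CPM in SM. In males 2 of the 12 were upregulated and 11 were positive, *Slc17a7*, the vesicular glutamate transporter of cortex, going from 10.8 to 107 CPM (log2 fold change 3.29, adjusted p = 0.115) and the cortical transcription factor *Emx1* from 0.0708 to 0.462 CPM (2.35, adjusted p = 0.189), and the median of the list was 2.49. In females 0 of 12 were called or positive, *Slc17a7* was 174 CPM in NSF and 54.9 in SF, *Cux2* was 25.8 and 25.2, and the median was -0.58. The 3 dorsolateral striatal markers summed to 196 to 200 CPM in NSM, 238 to 286 in SM, 229 to 258 in NSF and 229 to 274 in SF, again with none at 0. Of these, *Coch* went from 10.4 to 22.2 CPM in males (log2 fold change 1.09, adjusted p = 0.0177) and the cannabinoid receptor *Cnr1* from 85.5 to 122 CPM (0.50, adjusted p = 0.0183). In females 0 of the 3 were called, with *Cnr1* at -0.10 and *Gpr155* at 0.12. The 3 ventromedial markers stand for the ventral and medial striatum, the part that holds the NAc itself. They summed to 873 to 944 CPM in NSM and 688 to 869 in SM, 690 to 850 in NSF and 809 to 890 in SF. None of them was called, with *Wfs1* at -0.34 and *Crym* at -0.15 in males and 0.29 and -0.05 in females. In males 0 of the 3 were positive, at a list median of -0.31, and in females 1 was, at a median of -0.05. *Drd3* was 11.3 to 12.8 CPM in NSM and 9.66 to 10.2 CPM in SM, without overlap.

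*Nts*, *Cartpt* and *Prok2* and the dorsolateral markers differed between the same groups of males. As a group, NSM had the highest levels of *Nts*, *Cartpt* and *Prok2*, and its highest dorsolateral sum, 200 CPM, was below that of every other library. Among the SM libraries, replicate 1 had the lowest cortical sum, 95 CPM, and the highest *Nts*, *Cartpt* and *Prok2*. Replicate 2 had the highest dorsolateral sum, 286 CPM, and the lowest of each of the 3 genes. Replicate 3 had the highest cortical sum, 263 CPM, and the lowest dorsolateral sum, 238 CPM, with middle levels of the 3 genes. Neither sum ordered the 3 SM libraries exactly as the genes did, but the dorsolateral sums of replicates 1 and 3, 248 and 238 CPM, were close. In NSF the order was another. Replicate 2 had the lowest cortical sum, 68.2 CPM, with the lowest *Nts* and *Cartpt* and the highest *Prok2*, and replicate 3 the highest, 448 CPM, with the highest *Nts*. In SF, replicate 3 had the highest cortical sum, 172 CPM, the highest dorsolateral sum, 274 CPM, and the lowest of each of the 3 genes. After each group's mean was taken out, the correlation with the cortical marker level over the 12 libraries was -0.24 for *Nts*, 0.14 for *Cartpt* and -0.37 for *Prok2*. With the mean level of the cortical markers in the model, the male log2 fold changes were -0.73 for *Nts* (adjusted p = 0.216), -0.88 for *Cartpt* (adjusted p = 0.0431) and -1.15 for *Prok2* (adjusted p = 0.111), and all 3 remained called. With the dorsolateral markers in the model, an alternative chosen after seeing the data, they were -0.083 for *Nts* (adjusted p = 0.995), -0.27 for *Cartpt* (adjusted p = 0.994) and -1.04 for *Prok2* (adjusted p = 0.994), and *Prok2* alone remained called. The dorsolateral and the ventromedial sums of NSM overlap with those of neither SM nor NSF. These marker levels therefore cannot be told apart from stress in males, nor from sex in unstressed mice. The same holds for the mean log2 cortical level in the model. It was lower in every NSM library than in any SM or NSF library. The fit with it therefore cannot separate cortical tissue from stress in males. The interaction draws on the same NSM libraries. The part of any of these tissues in the result was not tested.

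**Figure D3:**
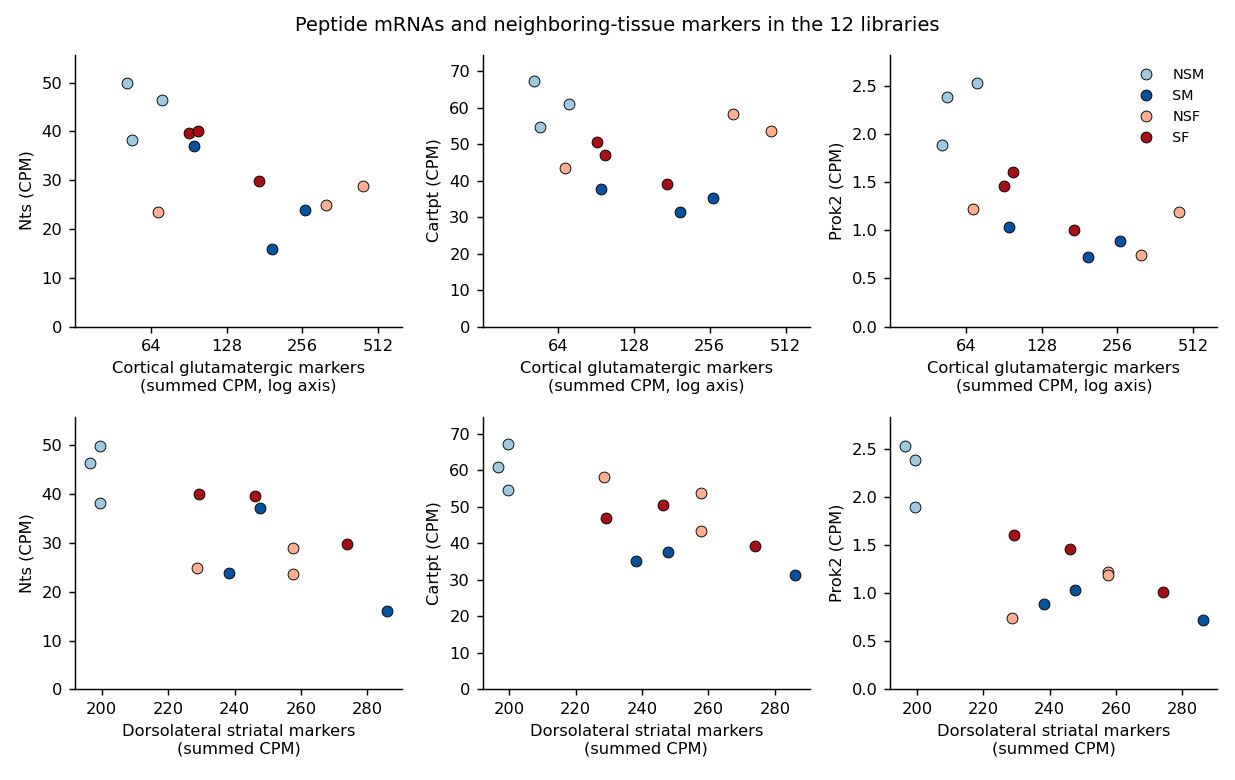
Level of *Nts*, *Cartpt* and *Prok2* (CPM) in each of the 12 libraries against the summed CPM of 12 cortical glutamatergic markers (top, log axis) and of 3 dorsolateral striatal markers (bottom). The NSM libraries sit at the upper left of each panel, with the dorsolateral sum at 196 to 200 CPM, and the SM libraries lie lower and further right.

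The receptors differed among themselves in their relation to the cortical markers. Within groups, the correlation of the log2 level with the cortical marker level was 0.82 for *Ntsr1*, 0.40 for *Ntsr2*, -0.82 for *Tacr1*, -0.81 for *Tacr3* and -0.08 for *Prokr2*, over 12 libraries that share their depth and punches. *Ntsr1*, a gene also known from deep layer neurons of the cortex, was 4.84 CPM in the NSF library with a cortical sum of 448 CPM, 3.31 CPM in that with 317 and 2.39 CPM in that with 68.2, and in SF it was 1.63, 2.72 and 3.69 CPM at sums of 91, 98.5 and 172. With the cortical level in the model, its difference between NSF and NSM was -0.069 (adjusted p = 0.997) instead of 0.78, and its difference between SM and NSM was -0.64 (adjusted p = 0.238) instead of 0.13 and passed the call rule. Its difference between SF and SM was 0.47 (adjusted p = 0.24) instead of 0.27 and passed the rule as well, which made 4 members called in that comparison. *Tacr1* in males became 0.45 (adjusted p = 0.0546) in the same model and passed the rule too. The mean log2 cortical level was -0.38 to 0.58 in NSM, 1.21 to 2.88 in SM and 0.75 to 3.625 in NSF. NSM thus overlaps neither, so the fit cannot separate the cortical level from stress in males or from sex in unstressed mice.

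Markers of other cells were called in 1 case. Among the septal and hypothalamic markers, *Avp*, *Oxt*, *Hcrt* and *Pmch* were at or near 0 and not tested, and the 4 tested, *Trpc4* (-0.29 in males and -0.11 in females), *Trh* (0.17 in males), *Slc17a6* (0.58 in males and 0.49 in females) and *Crhr2* (-0.24 and 0.19), gave 0 calls, with list medians of -0.04 in males and 0.22 in females. Of 7 interneuron markers, *Pvalb* was upregulated in males, from 2.09 to 3.99 CPM (log2 fold change 0.93, adjusted p = 0.128), and 0 were called in females, where *Sst* had -0.01 and *Nos1* -0.02. The list medians were 0.05 and 0.19. Of 7 astrocyte markers, 0 were called in either sex, with *Slc1a2* at 0.22 and *Slc1a3* at -0.03 in males and 0.09 and 0.01 in females, and list medians of -0.03 and 0.04.

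**Figure D4:**
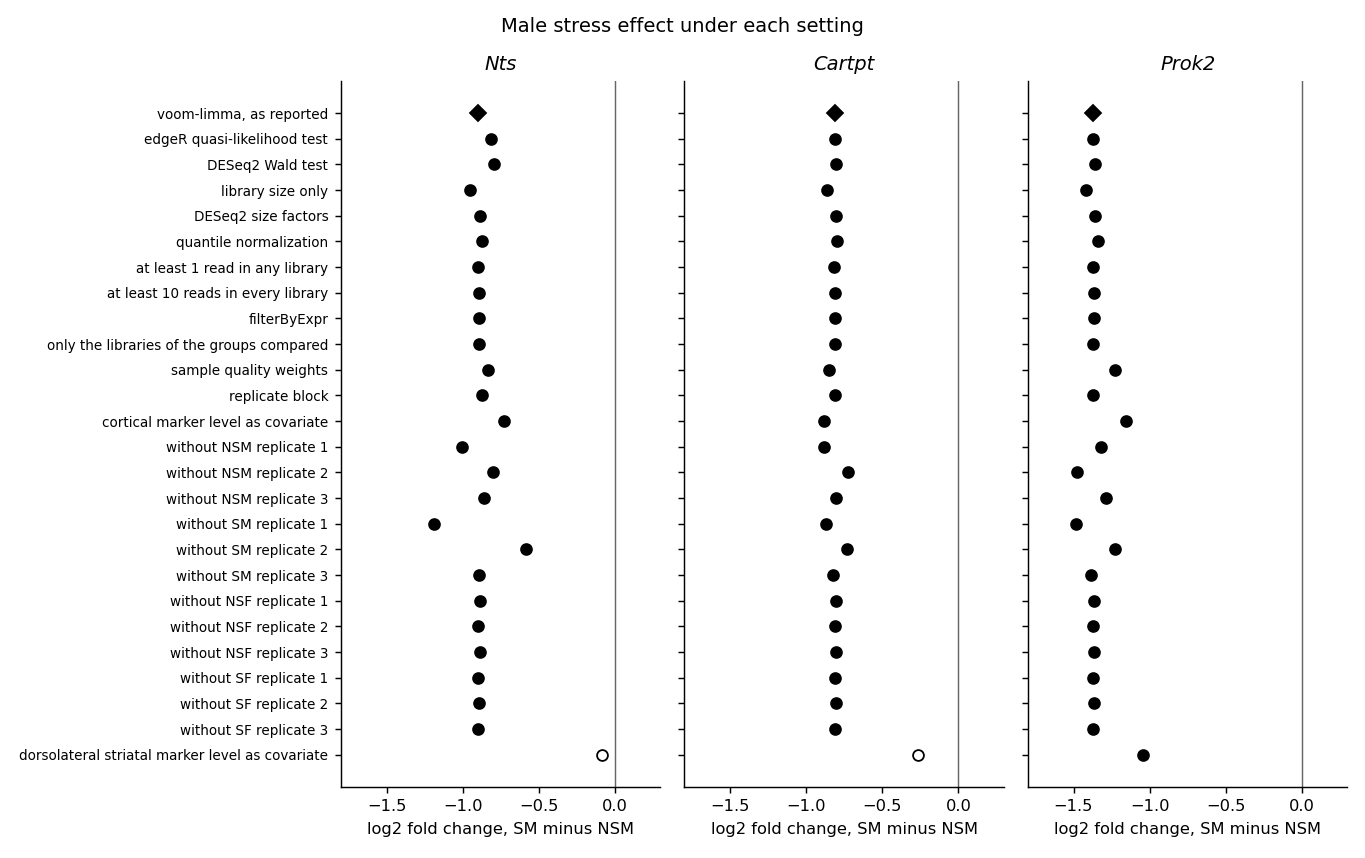
Log2 fold change of SM against NSM for *Nts*, *Cartpt* and *Prok2* under each way of processing the counts. The diamond is the value as reported, filled symbols are called and open symbols are not. The 2 open symbols, for *Nts* at -0.083 and *Cartpt* at -0.27, are the fits with the dorsolateral marker level.

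Over the 12 libraries the log2 levels of *Nts* and *Prok2* had a Pearson correlation of 0.82, *Nts* and *Cartpt* one of 0.69 and *Cartpt* and *Prok2* one of 0.66. After each group's mean was taken out these were 0.51, 0.68 and 0.02. *Cartpt* and *Tac1*, which was not called, had 0.25 over the 12 libraries and 0.73 within groups. *Nts* and *Prokr2* had -0.38 and -0.73. The receptors *Tacr1* and *Tacr3* had 0.68 over the 12 libraries and 0.68 within groups, and *Ntsr1* and *Ntsr2* 0.81 and 0.75. The libraries share depth and tissue makeup, and the values are given as a description.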

How the data were processed

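Polyadenylated RNA was measured in 12 libraries (NSM, SM, NSF and SF, 3 each), grouped by their labels, and 12 small RNA libraries were not used here. The authors aligned paired reads with TopHat2 to NCBIM37 (mm9) and the deposited values are raw read counts per gene from HTSeq, per the labels and the study's methods. No column of the count table was left unused (0 columns). Symbols and positions came from GENCODE on NCBIM37 by identifier, and upstream sequences from RefSeq (GRCm38.p6), which had all 9 genes.

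Genes were kept if over 5 reads were counted in 80% or more of one condition's libraries. Counts were scaled by TMM (edgeR 4.0.16) and fitted with voom and limma 3.58.1 in R 4.3.3 with 1 mean per group over 12 libraries, and p-values were adjusted by Benjamini-Hochberg over all 18593 genes. A gene was called at p under 0.05 and a fold of at least 1.3. CPM are TMM-scaled and RPKM use exon length. The edgeR quasi-likelihood test and DESeq2 1.42.0 were alternatives, with other scalings, filters, weights, a replicate block, marker covariates and each library left out. The fit was also run on simulated counts without differences in tissue makeup, so that run does not bear on the marker levels. No pair of libraries had identical counts (0 pairs).

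The members and gene lists were chosen with earlier results of these data known. Besides the members and the family genes, each list names up to 4 called genes of the largest change per sex, or, where none was called, the 2 of highest level, and for each ligand the 5 genes with at least 10 reads of the most similar pattern. *Gpr52* and *Slc18a3* had no matching symbol, and a few further genes that a result turns on were named after their values were seen. Protein sequences were not used here.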

Additional observations from a re-analysis of the deposited data

Results flagged for a closer look

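The stress effect differed between the sexes for 3 members by the sex-by-stress interaction at the call rule of the report (fold of 1.3 or more, unadjusted p under 0.05). The log2 difference was 1.40 for *Nts* (SE 0.30, adjusted p = 0.142), where all 3 stressed male libraries were below the unstressed males and all 3 stressed female libraries were above the unstressed females. It was 1.73 for *Prok2* (SE 0.33, adjusted p = 0.12) and 0.64 for *Cartpt* (SE 0.17, adjusted p = 0.231), where the male libraries did not overlap and the female libraries did. None of the 3 passed an adjusted p of 0.05 over all genes with limma or edgeR, while *Prok2* (adjusted p = 0.00164) and *Cartpt* (adjusted p = 0.0294) did with DESeq2. With the dorsolateral marker level in the model the differences were 0.63 for *Nts*, 0.12 for *Cartpt* and 1.43 for *Prok2*, and only that of *Prok2* was called. The genes were picked with these results known.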

How the results depend on the processing

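The 3 male calls, *Nts*, *Cartpt* and *Prok2*, remained under each tool, scaling, filter and weighting tried, after leaving out any single library of the 12, and with the cortical covariate. Left-out ranges for *Nts*, *Cartpt* and *Prok2* were -1.19 to -0.58, -0.88 to -0.73 and -1.48 to -1.23, and 1 to 3 of the 3 kept an adjusted p under 0.05. The number of members called in males was 5 with the cortical covariate, which added *Ntsr1* (reversed to -0.64) and *Tacr1*, and 1 (*Prok2*) with the dorsolateral covariate chosen after seeing the data. Neither covariate overlaps between NSM and SM, so neither fit can separate it from stress in males. With the dorsolateral covariate the interaction also fell to 1 (*Prok2*) and the unstressed sex difference to 0. Between SF and NSF, whose dorsolateral sums overlap, *Nts* was 0.55 in that fit and stayed called. Between SF and SM, whose sums overlap too, *Nts* was 0.50 and *Prok2* 0.59, both called, and *Cartpt* was 0.34, under the fold limit. In females the number called was 0 with DESeq2, with sample quality weights, with the cortical covariate and with an adjusted p, and 0 to 3 with a library left out. Without NSF replicate 2 the 1 call was *Ntsr1*, and without SF replicate 3 the 3 were *Nts*, *Ntsr1* and *Prok2*. The interaction count was 0 with an adjusted p and 3 with any library left out. The unstressed sex difference gave 1 (*Prok2*) with the cortical covariate, where *Ntsr1* reversed to -0.069, 0 with an adjusted p (1, *Prok2*, by edgeR, DESeq2, quantile normalization or sample quality weights), and 2 to 3 with a library left out, *Ntsr1* being lost without NSM replicate 2 or NSF replicate 3. The stressed sex difference gave 4 with the cortical covariate, *Ntsr1* being added, 1 with sample quality weights, 0 with an adjusted p and 0 to 3 with a library left out. By DESeq2 *Cartpt* passed with an adjusted p of 0.0447 there, and *Nts* was not called. *Cartpt* was near the fold limit, at 1.31-fold, and was not called with quantile normalization (0.37 on the log2 scale). Where no value above shows it, the cause was not tested. The interaction could not be fitted with only the libraries compared.

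Replicate numbers are shared by the groups, but the labels do not say what a number stands for. Deviations of same-numbered libraries correlated at 0.03, 0.01 and 0.35 in males and 0.11, 0.09 and 0.13 in females. For differently numbered libraries the values ran from -0.21 to 0.20 in males and from -0.14 to 0.03 in females. Every same-numbered value in females was thus higher than these. Whether the numbers stand for pairs was not tested, and the main fit did not take them as pairs. With the replicate number as a block 3 members were called in males, 1 in females, and 3 in the interaction, as without it, and the adjusted p of *Prok2* between unstressed sexes was 0.0267.

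*Prok2*, *Ntsr1* and *Prokr2* rest on 33 to 403 reads a library, which limits their precision, and 3 pools a group limit every comparison.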

Other observations

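Over the 12 libraries, the genes whose log2 level followed a ligand most closely, among 15169 protein-coding genes, were ranked by Pearson correlation, given without a test because group differences are part of the pattern. For *Nts* these were *Tnfsf9* (0.88), *Htr4* (0.88), *Csnk1d* (0.87), *Max* (0.87) and *Adra2b* (0.87). For *Cartpt* they were *Nnat* (0.95), *Odz4* (0.92), *Nat8* (0.92), *Taf8* (0.92) and *Atg9b* (0.91). For *Prok2* they were *Tro* (0.96), *Fat1* (0.96), *N4bp2* (0.94), *Vcl* (0.94) and *Mettl16* (0.94). For *Tac1*, which was not called in any comparison, they were *Mrpl32* (0.93), *Rab40b* (0.93), *Rwdd4a* (0.91), *Mrps25* (0.91) and *Rfc4* (0.89). The 4 lists of 5 genes share no gene.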
